A study of Mus musculus with 15 samples.

Results

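Transcripts that are known from the epithelium of the small intestine were examined in RNA sequencing libraries of sorted gut macrophages and blood monocytes. The list held 33 genes, chosen by name for their known use in enterocytes, goblet cells and crypt cells. All 33 were among the 19456 genes with deposited counts, and 32 passed the filter on low counts, which kept 15802 genes. Phgr1 had too few reads to be tested.

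The cells came from wild-type adult male C57BL/6 mice. Ly6Chi monocytes were sorted from peripheral blood (n = 3 libraries). Macrophages of the small intestine were sorted into a Tim-4-CD4- subset, a Tim-4-CD4+ subset and a Tim-4+CD4+ subset (n = 4 libraries each), as live cells with surface CD45, CD11b, CD64 and MHCII that lacked Ly6C and lineage markers. That gate held no antibody to an epithelial protein. Cells of 3 mice were pooled for a library, and those of 4 for monocyte replicate 2, and the replicates are labelled as separate pools. The authors describe 4 independent sorts, each from 3 pooled mice, for the macrophages, so libraries of different subsets may share mice. Which libraries came from the same sort is not stated. The main test did not pair them, and fits with a replicate block are given below. The reads counted on genes ran from 39388763 to 151510641 per library (median 63249039). The genes of the sorted proteins followed the labels: Cd4 was at 14.5 to 39.2 CPM (a gene's reads scaled to a common library size) in Tim-4-CD4- libraries and at 484 to 924 in both CD4+ subsets, and Timd4 was at 336 to 390 in Tim-4+CD4+ libraries and at most 4.47 in all others. In these bulk libraries, fewer cells of a type and less RNA per cell cannot be told apart.

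The surface of the small intestine is a single layer of epithelial cells, most of them enterocytes, which take up nutrients through a brush border of microvilli. Enterocytes mature as they move from the crypt up the villus, and switch on genes for digestion, fat handling and the brush border late in that course. Macrophages lie in the lamina propria just beneath this layer and are known to engulf dying cells. Keratins 8, 18 and 19 and the adhesion proteins Epcam and E-cadherin mark epithelial cells at most stages. Krt20, Fabp1, Fabp2, Apoa4 and Alpi are among the markers of mature cells on the villus, and are named here with their levels known. Other members for digestion, lipid handling and the brush border did not share their pattern. Sis, Lct, Slc5a1, Apob and Fabp6 were not called between the subsets, and Anpep was lower in Tim-4+CD4+ macrophages.

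Several mature enterocyte genes differed between the macrophage subsets, so the DNA just before the start of 3 of them is shown to let the reader see what sequence these members carry. The windows span the 250 bases before the start in the RefSeq table of build GRCm38.p6, and run 5′ to 3′ on the strand of the gene. They lie at chr6:71199629-71199878 on the plus strand for Fabp1, at chr1:87101607-87101856 on the minus strand for Alpi and at chr11:99438154-99438403 on the minus strand for Krt20. Capitals mark matches, on either strand, to TATAAA (the core promoter element of that name), to TTTATG (letters that CDX factors favor) and to CAAAGTCCA (letters that HNF4 factors favor), none of which overlapped another here.
Fabp1: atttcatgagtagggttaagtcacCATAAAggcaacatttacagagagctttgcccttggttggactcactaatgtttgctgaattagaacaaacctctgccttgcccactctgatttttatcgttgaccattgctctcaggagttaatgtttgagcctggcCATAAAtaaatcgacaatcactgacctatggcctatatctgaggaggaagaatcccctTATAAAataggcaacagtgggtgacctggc
Alpi: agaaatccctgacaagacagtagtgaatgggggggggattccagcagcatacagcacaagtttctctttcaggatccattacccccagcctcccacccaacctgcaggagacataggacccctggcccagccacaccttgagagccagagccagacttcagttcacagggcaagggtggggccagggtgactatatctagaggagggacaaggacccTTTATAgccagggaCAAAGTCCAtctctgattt
Krt20: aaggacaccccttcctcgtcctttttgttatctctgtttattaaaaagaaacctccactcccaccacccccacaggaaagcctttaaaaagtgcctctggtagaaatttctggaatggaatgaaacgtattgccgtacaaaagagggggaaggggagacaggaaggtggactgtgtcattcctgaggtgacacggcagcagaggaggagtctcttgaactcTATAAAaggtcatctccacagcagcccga

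The TATA letters began 30 bases before the start of Fabp1 and 29 before that of Krt20, and on the opposite strand lay 33 to 28 bases before that of Alpi. Fabp1 held the CDX letters at 2 places, and Alpi held the HNF4 letters 19 to 11 bases before its start. Of the 28 members with a promoter in the table, 10 held the TATA letters, 8 the CDX letters and 1 the HNF4 letters. The shares over all 32851 promoters of the same length were 12.4%, 10.8% and 0.384%. The 3 genes shown are not typical of the members called higher in a CD4+ subset. Fabp2, Vil1, Apoa1 and Apoa4 were called higher too and held none of these letters. Apoc3 had no promoter in the table. A match is a run of letters in the window and was not tested as a site.

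Epithelial transcripts were near absent from blood monocytes and present at a low level in every macrophage library. Of the 33 genes, 19 had no count in any of the 3 monocyte libraries, 3 had 1 to 3 counts in all and 11 had more. In contrast, 27 had a count in each of the 12 macrophage libraries, and 21 had more than 3 counts in each. The median level over the macrophage libraries was below 1 CPM for 20 genes, from 1 to 10 CPM for 12 genes and above that for Anpep alone.

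**Figure D1:**
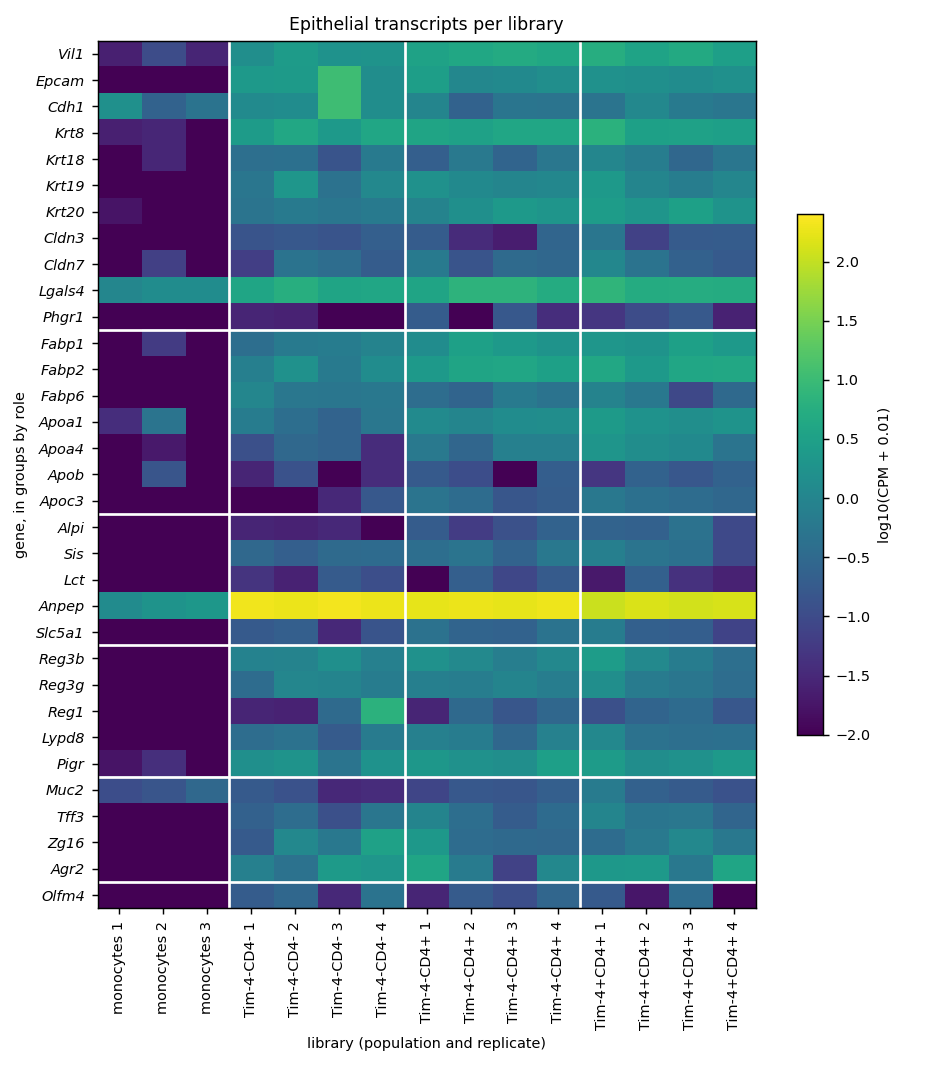
Level of each of the 33 epithelial genes (rows, in groups by role) in each of the 15 libraries (columns), as log10(CPM + 0.01). Monocyte columns are mostly at the bottom of the scale, Anpep is far above the rest in all 12 macrophage libraries, and Cdh1 and Epcam stand out in Tim-4-CD4- replicate 3 and Reg1 in Tim-4-CD4- replicate 4.

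Against monocytes, 28 of the 32 genes tested were higher and 0 lower in Tim-4-CD4- macrophages, in edgeR's quasi-likelihood test with Benjamini-Hochberg adjustment over all genes. Over all genes tested, 37.3% were higher and 28.1% lower in that comparison. In each of the CD4+ subsets 29 genes were higher and 0 lower, where 39.1% (Tim-4-CD4+) and 39.5% (Tim-4+CD4+) of all genes were higher and 30.7% and 31.3% lower. The median log2 difference, with the 18 tested genes at 0 in all monocyte libraries set to their lower bound, was 5.21 in Tim-4-CD4-, 5.50 in the Tim-4-CD4+ subset and 5.79 in Tim-4+CD4+ macrophages, against 0.08, 0.11 and 0.10 for all genes. The 18 tested genes without a monocyte count passed the low-count filter only through macrophage libraries and could not have been called lower. The counts of members called are therefore not read against the shares of all genes. The 3 comparisons share the monocyte libraries.

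The bounds are set by a floor of 3 counts over the monocyte group, and they cover counting error only. Fabp2, which binds fatty acids inside enterocytes, was at least 103-fold higher in Tim-4-CD4-, 311-fold in the Tim-4-CD4+ subset and 355-fold in Tim-4+CD4+ macrophages. Krt19 was at least 97.0-fold higher in every subset, Reg3b at least 97.7-fold and Agr2 at least 133-fold. Of the 19 genes without a monocyte count, 15 were at least 10-fold higher in each subset. Phgr1 had a mean of 0.00875 CPM in Tim-4-CD4- macrophages, which is under the floor, so no fold is given for it.

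Other members did have monocyte reads, 11 of them more than 3 in all. Cdh1, the E-cadherin gene, was at 0.233 to 1.62 CPM in monocytes. Against them it was not called in Tim-4-CD4+ (adjusted p = 0.59) or Tim-4+CD4+ macrophages (adjusted p = 0.84, edgeR). It was called higher in Tim-4-CD4- (adjusted p = 0.023, edgeR), but not under every alternative (adjusted p up to 0.26). Lgals4, a lectin of the enterocyte surface, was at 1.04 to 1.39 CPM in monocytes and at 3.71 to 7.70 in macrophages, so it was higher but not absent before. Muc2, the main mucin of goblet cells, was at 0.0992 to 0.297 CPM in monocytes and at 0.0216 to 0.671 in macrophages, and passed the test in no comparison with monocytes (adjusted p from 0.27 to 0.78, edgeR). Apob, the core protein of chylomicrons, was at 0.136 CPM in monocyte replicate 2 and listed at 0 in the other 2 monocyte libraries, and it also passed in none. That library stood apart from the other monocytes in liver transcripts too: Alb, the serum albumin gene of hepatocytes, was at 2.62 CPM in it, 0.0496 in replicate 1 and 0 in replicate 3, and Apoa1 was at 0.486, 0.0283 and 0 CPM in the same order. The part of liver RNA in these 2 values was not tested.

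Anpep encodes aminopeptidase N (CD13), an enzyme of the brush border that is also known on the surface of myeloid cells. Its level was 203, 184, 212 and 186 CPM in Tim-4-CD4-, 175, 184, 173 and 194 in the Tim-4-CD4+ subset and 113, 142, 126 and 137 in Tim-4+CD4+ macrophages, replicates 1 to 4. Monocytes had 1.33 to 2.10 CPM. All 4 Tim-4+CD4+ libraries were therefore below all others of the macrophages, while the Tim-4- subsets overlapped. Anpep was lower in Tim-4+CD4+ than in Tim-4-CD4- (log2 fold change -0.60 ± 0.11 SE, adjusted p = 0.00068) and than in Tim-4-CD4+ macrophages (-0.49 ± 0.11, adjusted p = 0.017, both edgeR), although the second call was lost without Tim-4-CD4+ replicate 4 (adjusted p = 0.063). Tim-4-CD4+ less Tim-4-CD4- gave -0.11 ± 0.11 (adjusted p = 0.61, edgeR).

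Per kilobase of exon, Anpep led the list in all 3 subsets, with 47.5 ± 3.28 CPM per kb (SD, n = 4) in Tim-4-CD4-, 43.9 ± 2.34 in the Tim-4-CD4+ subset and 31.3 ± 3.05 in Tim-4+CD4+ macrophages. In Tim-4-CD4+ macrophages Fabp1 (3.92 ± 1.36), Fabp2 (3.43 ± 0.756), Lgals4 (2.47 ± 0.680) and Krt8 (1.92 ± 0.176) followed in that order, as they did in Tim-4+CD4+ macrophages. Fabp1 and Fabp2 lay within 1 SD of each other there. In Tim-4-CD4- macrophages they ranked 7th and 8th of 33 by the mean per kb, behind genes that include Krt8 (1.70 ± 0.531) and Lgals4 (1.84 ± 0.393). Because Anpep made up most of the summed level, sums are given without it.

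The other 32 genes together were at 2.17 to 2.83 CPM in monocytes. They summed to 21.3, 30.8, 40.4 and 36.5 CPM in Tim-4-CD4-, to 38.7, 35.2, 36.2 and 37.2 in the Tim-4-CD4+ subset and to 56.0, 36.0, 38.1 and 35.6 in Tim-4+CD4+ macrophages. The subsets overlapped, with means of 32.2 ± 8.30, 36.8 ± 1.48 and 41.4 ± 9.79 CPM (SD, n = 4 each). The highest sum in each of the outer subsets came from 1 library: Tim-4-CD4- replicate 3, described below with Cdh1, and Tim-4+CD4+ replicate 1, which also had the highest Krt8, Lgals4 and Reg3b of its subset.

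**Figure D2:**
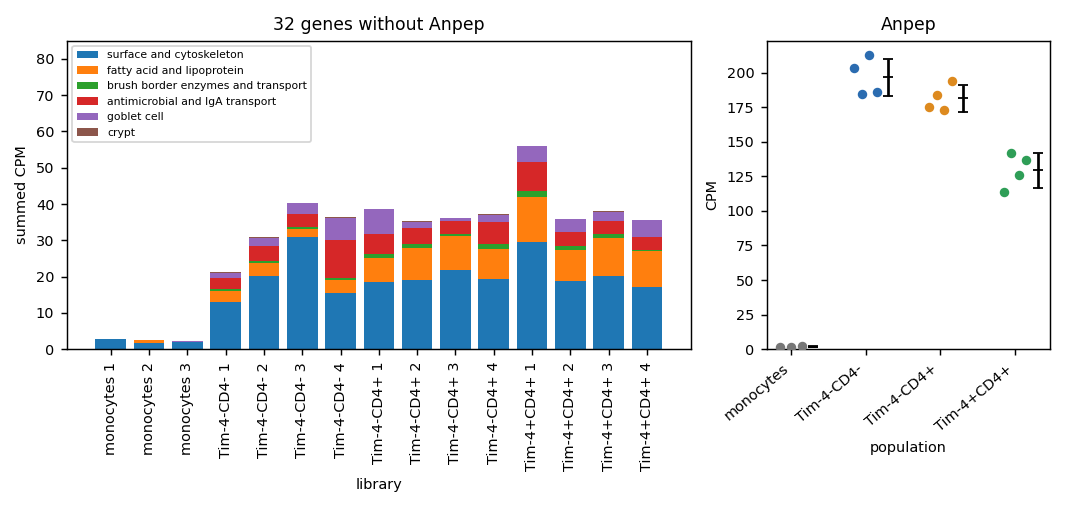
Left, summed CPM of the 32 epithelial genes without Anpep in each of the 15 libraries, stacked by role. Right, Anpep in CPM, 1 point per library with mean and SD. Macrophage sums lie between 21.3 and 56.0 CPM in overlapping ranges, while the fatty acid and lipoprotein layer is thicker in both CD4+ subsets than in Tim-4-CD4- libraries.

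Of the groups by role, only the fatty acid and lipoprotein genes took shares of this sum that separated Tim-4-CD4- from both CD4+ subsets. Of the summed counts without Anpep, the 7 fatty acid and lipoprotein genes took 5.77 to 14.2% in Tim-4-CD4-, 17.0 to 25.9% in the Tim-4-CD4+ subset and 21.9 to 27.9% in Tim-4+CD4+ libraries, so that no Tim-4-CD4- library reached the range of either CD4+ subset. The 11 surface and cytoskeleton genes took 42.0 to 76.4%, 48.0 to 60.0% and 47.8 to 52.8%. The 4 goblet cell genes took 6.43 to 16.1%, 1.91 to 18.2% and 6.33 to 13.3%, in overlapping ranges. The sums of Tim-4-CD4- replicates 3 and 4 hold the high Cdh1, Epcam and Reg1 values described below, which lower the other shares there. In replicates 1 and 2 of that subset the fatty acid and lipoprotein share was 14.2 and 11.7%. These shares come from list members chosen with results of these data known, and no test was run on them.

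In Tim-4-CD4+ against Tim-4-CD4- macrophages, 5 of the 32 genes were higher and 1 lower in edgeR's test, where 4.52% of all genes were higher and 5.53% lower. The genes that rose were Vil1, Krt20, Fabp1, Fabp2 and Alpi, and the gene that fell was Cdh1. In Tim-4+CD4+ against Tim-4-CD4- macrophages, 8 were higher and 2 lower, beside 11.3% and 11.9% of all genes. The same 5 rose, together with Apoa1, Apoa4 and Apoc3, and Cdh1 and Anpep fell. In Tim-4+CD4+ against Tim-4-CD4+ macrophages 0 were higher and 1, Anpep, was lower, beside 2.07% and 1.34% of all genes. DESeq2 also called 1 member in that comparison, and 1 member had an unadjusted p under 0.05 in edgeR. On leaving out 1 library, 3 members in place of 6 were called in the first comparison without Tim-4-CD4- replicate 1, Tim-4-CD4- replicate 3 or Tim-4-CD4+ replicate 4, and 0 in place of 1 in the last without Tim-4-CD4+ replicate 4. The median log2 fold change of the 32 genes was 0.46, 0.63 and 0.13 in the 3 comparisons, and that of all genes was 0.00 in each. The first 2 of these comparisons share the Tim-4-CD4- libraries.

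**Figure D3:**
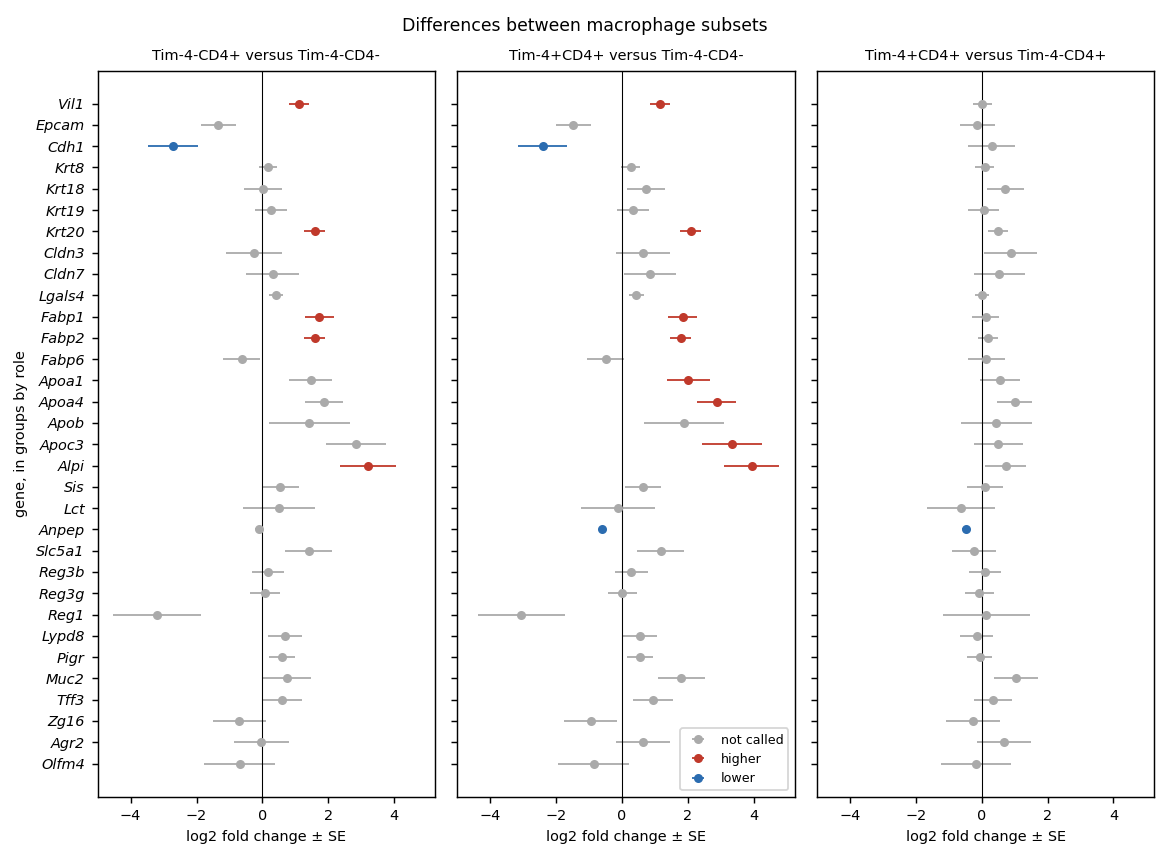
Log2 fold change with SE of 32 epithelial genes (rows, in groups by role) in the 3 comparisons of macrophage subsets, from edgeR's fit on 15 libraries. Red points were called higher and blue points lower at an adjusted p under 0.05, and grey points were not called. Red points are those of Vil1, Krt20, Fabp1, Fabp2 and Alpi in both comparisons with Tim-4-CD4- and of Apoa1, Apoa4 and Apoc3 in the middle comparison.

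The fatty acid-binding proteins carry lipid within the enterocyte. Fabp1, the liver type, was at 0.383, 0.637, 0.690 and 0.932 CPM in Tim-4-CD4-, at 1.36, 3.11, 2.37 and 1.84 in the Tim-4-CD4+ subset and at 2.04, 1.79, 3.20 and 2.4 in Tim-4+CD4+ macrophages. Fabp2, the intestinal type, was at 0.785, 1.64, 0.625 and 1.35 CPM, then at 2.36, 3.64, 4.07 and 3.17, and then at 4.28, 2.38, 4.03 and 4.39 in the same order. For both genes every library of the CD4+ subsets lay above every Tim-4-CD4- library, and the CD4+ subsets overlapped each other. In edgeR's test Fabp1 rose by 1.72 ± 0.44 on the log2 scale in Tim-4-CD4+ (adjusted p = 0.019) and by 1.84 ± 0.44 in Tim-4+CD4+ macrophages (adjusted p = 0.0057), each against Tim-4-CD4-. Fabp2 rose by 1.59 ± 0.32 (adjusted p = 0.0046) and 1.77 ± 0.32 (adjusted p = 0.00088). The first Fabp1 call was lost without Tim-4-CD4- replicate 1 (adjusted p = 0.061) or Tim-4-CD4+ replicate 2 (adjusted p = 0.066), whereas the Fabp2 calls held whichever library was left out.

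Fabp6, the ileal bile acid-binding protein of the same family, did not share this pattern. It was at 0.517 to 1.04 CPM in Tim-4-CD4-, 0.253 to 0.614 in the Tim-4-CD4+ subset and 0.0804 to 0.905 in Tim-4+CD4+ macrophages, and was not called between any of them. The ratio of Fabp6 to Fabp2 counts within a library ran from 0.327 to 1.33 in Tim-4-CD4-, from 0.0694 to 0.155 in the Tim-4-CD4+ subset and from 0.0199 to 0.238 in Tim-4+CD4+ macrophages. Fabp1 is known from the proximal gut and Fabp6 from the ileum, and the labels name no segment of the small intestine for the cells.

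Apoa1, Apoa4 and Apoc3 encode apolipoproteins that enterocytes and hepatocytes add to secreted lipid particles, and lie side by side on chromosome 9, with 2466 bases between Apoa1 and Apoc3 and 5059 between Apoc3 and Apoa4. Apoa1 was at 0.693, 0.385, 0.237 and 0.543 CPM in Tim-4-CD4-, at 1.26, 1.01, 1.38 and 1.45 in the Tim-4-CD4+ subset and at 2.51, 1.72, 1.48 and 1.82 in Tim-4+CD4+ macrophages. Apoa4 was at 0.109, 0.302, 0.237 and 0.0259 CPM, then at 0.586, 0.278, 0.818 and 0.823, and then at 1.96, 1.41, 1.24 and 0.481. Apoc3 had no count in Tim-4-CD4- replicates 1 and 2 and at most 0.155 CPM in the others of that subset, against 0.141 to 0.476 CPM in the Tim-4-CD4+ subset and 0.282 to 0.564 in Tim-4+CD4+ macrophages. All 4 Tim-4+CD4+ libraries were above all Tim-4-CD4- libraries for each of the 3 genes.

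Apoa1 rose by 2.02 ± 0.66 (adjusted p = 0.037), Apoa4 by 2.87 ± 0.59 (adjusted p = 0.0019) and Apoc3 by 3.34 ± 0.91 (adjusted p = 0.015) in Tim-4+CD4+ against Tim-4-CD4- macrophages, on the log2 scale of edgeR's fit. In Tim-4-CD4+ against Tim-4-CD4- macrophages their values were 1.46 ± 0.66 (adjusted p = 0.20), 1.87 ± 0.59 (adjusted p = 0.054) and 2.84 ± 0.92 (adjusted p = 0.068), none past the threshold. The Apoa1 call was lost without any one of Tim-4-CD4- replicates 2, 3 and 4 or Tim-4+CD4+ replicates 1, 2 and 4 (adjusted p from 0.056 to 0.0996). Apob had at most 0.232 CPM in a macrophage library and was not called. Of 5 hepatocyte genes 3 were in the table, and their sum was at 0 to 0.0365 CPM in Tim-4-CD4-, 0 to 0.0128 in the Tim-4-CD4+ subset and 0.0161 to 0.172 in Tim-4+CD4+ macrophages, almost all of it Ttr, while Alb had no count in 11 of the 12 libraries. The part of hepatocyte RNA in the apolipoprotein values was not tested.

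Among brush border genes, Alpi rose in both CD4+ subsets. Alpi, intestinal alkaline phosphatase, was at 0.0182, 0.0168, 0.0216 and 0 CPM in Tim-4-CD4-, at 0.183, 0.0506, 0.115 and 0.229 in the Tim-4-CD4+ subset and at 0.243, 0.224, 0.450 and 0.0829 in Tim-4+CD4+ macrophages. These are few reads, with 1 count in each of Tim-4-CD4- replicates 1, 2 and 3. The log2 fold changes were 3.20 ± 0.86 (adjusted p = 0.028) and 3.93 ± 0.85 (adjusted p = 0.0035, both edgeR). The former was lost without any one Tim-4-CD4- library or without Tim-4-CD4+ replicates 1 or 4 (adjusted p from 0.055 to 0.096).

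Sis (sucrase-isomaltase), Lct (lactase) and Slc5a1 (the sodium-glucose transporter) were not called between the subsets. Sis was at 0.201 to 0.336 CPM in Tim-4-CD4-, 0.243 to 0.560 in the Tim-4-CD4+ subset and 0.0829 to 0.778 in Tim-4+CD4+ macrophages. Lct was at or below 0.215 CPM in every library. Slc5a1 was at 0.0216 to 0.201, 0.230 to 0.459 and 0.0663 to 0.701 CPM, and its log2 fold changes against Tim-4-CD4- of 1.40 ± 0.72 (adjusted p = 0.27) and 1.18 ± 0.71 (adjusted p = 0.27) did not pass edgeR's test.

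Vil1 and Krt20 build the cytoskeleton of the mature enterocyte. Vil1, villin, bundles actin in the microvilli and was at 1.48, 2.56, 1.77 and 1.79 CPM in Tim-4-CD4-, at 3.39, 4.15, 4.81 and 4.23 in the Tim-4-CD4+ subset and at 5.44, 3.60, 4.74 and 3.07 in Tim-4+CD4+ macrophages. Krt20, the keratin of differentiated villus cells, was at 0.474, 0.653, 0.517 and 0.621 CPM, then at 0.916, 1.54, 2.4 and 1.92, and then at 2.67, 1.95, 3.20 and 1.79. For neither gene did a Tim-4-CD4- library reach the range of a CD4+ subset. Krt20 rose by 1.59 ± 0.33 (adjusted p = 0.0042) and 2.08 ± 0.33 (adjusted p = 0.00019), and kept both calls whichever library was left out. Vil1 rose by 1.12 ± 0.30 (adjusted p = 0.025) and 1.15 ± 0.30 (adjusted p = 0.011, edgeR). Its call in Tim-4-CD4+ macrophages was lost without Tim-4-CD4- replicates 1, 3 or 4 or Tim-4-CD4+ replicates 2, 3 or 4, taken singly (adjusted p from 0.056 to 0.080).

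The keratins found along the whole villus did not pass the test. Krt8 was at 2.63, 4.42, 2.28 and 4.01 CPM in Tim-4-CD4-, at 3.70, 3.29, 4.00 and 4.02 in the Tim-4-CD4+ subset and at 6.53, 3.15, 3.25 and 3.03 in Tim-4+CD4+ macrophages. Its log2 fold changes against Tim-4-CD4- were 0.17 ± 0.28 (adjusted p = 0.79) and 0.26 ± 0.28 (adjusted p = 0.55, edgeR). Krt18, its partner in the filament, was at 0.129 to 1.04 CPM and Krt19 at 0.453 to 2.42 CPM over the 12 libraries, with the subsets overlapping. Krt8 and Krt18 lie 23697 bases apart on chromosome 15.

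Because Krt8 and Fabp2 are counted in the same library, their ratio does not depend on scaling. Per Krt8 count there were 0.274 to 0.371 Fabp2 counts in Tim-4-CD4-, 0.639 to 1.11 in the Tim-4-CD4+ subset and 0.656 to 1.45 in Tim-4+CD4+ libraries. The ratio to Krt8 also separated Tim-4-CD4- from both CD4+ subsets for Fabp1 (0.144 to 0.302, 0.366 to 0.946 and 0.313 to 0.985), Krt20 (0.148 to 0.226, 0.248 to 0.601 and 0.408 to 0.985) and Vil1 (0.445 to 0.774, 0.916 to 1.26 and 0.833 to 1.46). The ratios of Reg3b and Pigr to Krt8 overlapped among all 3 subsets. These genes were picked with their levels known, so the ratios are a description.

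**Figure D4:**
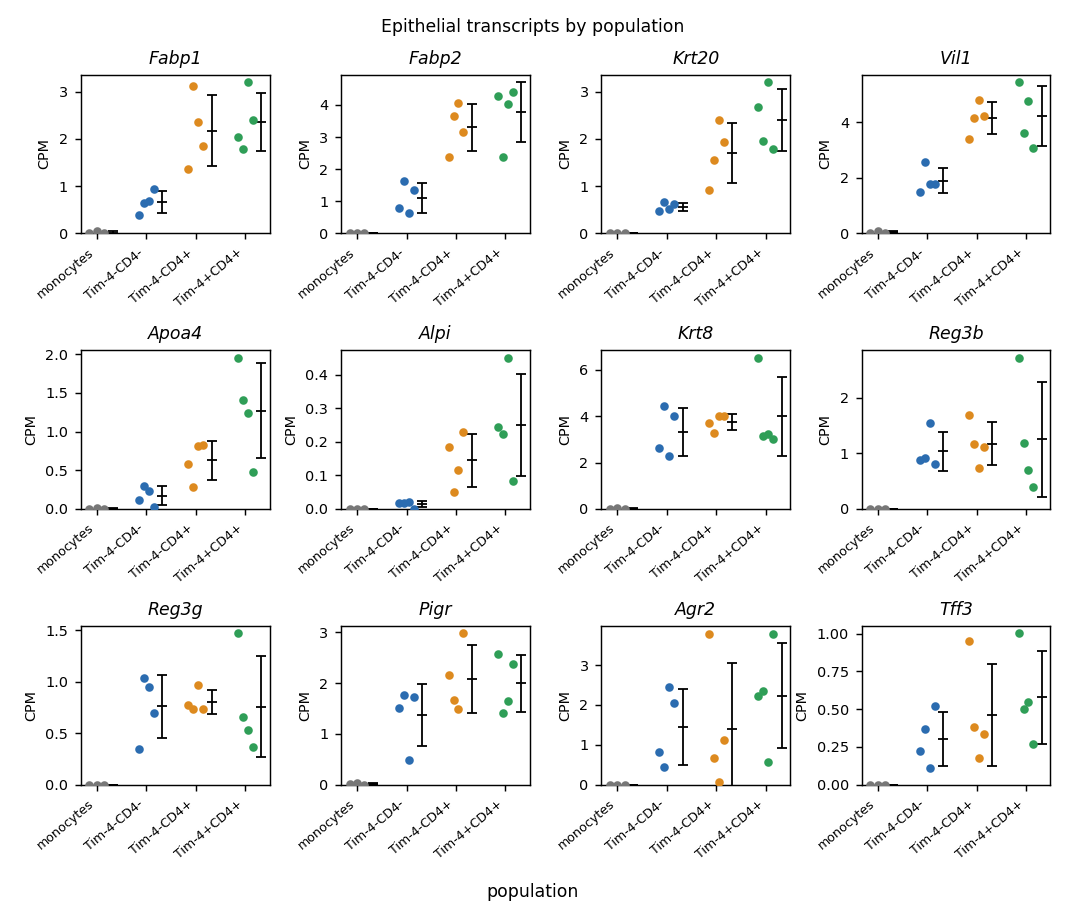
CPM of 12 epithelial genes in the 4 populations, 1 point per library, with mean and SD beside each group. In the panels of Fabp1, Fabp2, Krt20 and Vil1 no Tim-4-CD4- point reaches the lowest point of a CD4+ subset, whereas the 3 subsets overlap for Krt8, Reg3b, Reg3g, Pigr, Agr2 and Tff3.

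Cdh1 and Epcam join epithelial cells to each other, and Cdh1 was lower in both CD4+ subsets. Cdh1, E-cadherin, was at 1.28, 1.36, 10.6 and 1.45 CPM in Tim-4-CD4-, at 1.01, 0.228, 0.511 and 0.486 in the Tim-4-CD4+ subset and at 0.486, 1.10, 0.643 and 0.514 in Tim-4+CD4+ macrophages, and was at 1.62, 0.233 and 0.464 CPM in monocytes. Epcam was at 2.26, 2.51, 10.8 and 1.42 CPM in Tim-4-CD4-, 1.06 to 2.97 in the Tim-4-CD4+ subset and 1.38 to 1.65 in Tim-4+CD4+ macrophages, with no count in monocytes. For Cdh1 every Tim-4-CD4- library lay above every library of the CD4+ subsets, whereas the Epcam ranges overlapped. Tim-4-CD4- replicate 3 was far above the rest for both genes, while its Vil1 (1.77 CPM) and Krt8 (2.28 CPM) were not above those of its subset.

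Cdh1 fell by 2.71 ± 0.75 on the log2 scale in Tim-4-CD4+ (adjusted p = 0.028) and by 2.41 ± 0.73 in Tim-4+CD4+ macrophages (adjusted p = 0.025, edgeR), each against Tim-4-CD4-. Without Tim-4-CD4- replicate 3 the values were -1.28 ± 0.57 (adjusted p = 0.23) and -0.97 ± 0.56 (adjusted p = 0.27). The calls were also lost without Tim-4-CD4+ replicates 2, 3 or 4 in the former and Tim-4+CD4+ replicates 1, 3 or 4 in the latter (adjusted p from 0.053 to 0.089). Epcam was not called (-1.34 ± 0.53, adjusted p = 0.14, and -1.47 ± 0.53, adjusted p = 0.060, edgeR), and its values without that library were -0.30 ± 0.35 (adjusted p = 0.73) and -0.43 ± 0.35 (adjusted p = 0.46). In Tim-4+CD4+ macrophages it passed the threshold without Tim-4-CD4- replicate 1 or without replicate 4 (adjusted p = 0.026 for the latter).

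Among the remaining surface genes, the tight junction genes Cldn3 (0.0128 to 0.525 CPM) and Cldn7 (0.0547 to 1.08 CPM) were low in all macrophage libraries and were not called between subsets. Lgals4 had log2 fold changes of 0.42 ± 0.22 (adjusted p = 0.28) and 0.44 ± 0.22 (adjusted p = 0.17) against Tim-4-CD4- in edgeR. Phgr1 was at 0 to 0.183 CPM.

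The antimicrobial lectins Reg3b and Reg3g, which enterocytes secrete in response to microbes, showed little difference. Reg3b was at 0.876, 0.921, 1.55 and 0.802 CPM in Tim-4-CD4-, at 1.69, 1.16, 0.742 and 1.11 in the Tim-4-CD4+ subset and at 2.72, 1.19, 0.707 and 0.398 in Tim-4+CD4+ macrophages, and Reg3g had means of 0.758 ± 0.310, 0.801 ± 0.115 and 0.755 ± 0.491 CPM (SD, n = 4 each). No monocyte library had a count of either. The ranges overlapped for both genes, and the log2 fold changes against Tim-4-CD4- ran from 0.00 to 0.28. Reg3b and Reg3g are close paralogs on chromosome 6 and could share reads, although only uniquely mapped reads were counted.

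Pigr, the receptor that carries IgA across the epithelium, was at 0.474 to 1.78, 1.5 to 2.98 and 1.41 to 2.57 CPM, and Lypd8, which keeps flagellated bacteria off the epithelium, at 0.172 to 0.673, 0.281 to 0.864 and 0.402 to 1.14. Neither passed the test (Pigr, 0.60 ± 0.39, adjusted p = 0.40, and 0.54 ± 0.39, adjusted p = 0.36, edgeR). Immunoglobulin genes of plasma cells, which secrete the IgA that Pigr binds, were far above any epithelial gene, with Igha at 1703 to 4666 CPM in macrophages and 1.22 to 1.89 in monocytes.

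Reg1, known from pancreatic acinar cells as well as the gut, lies between Reg3b and Reg3g on chromosome 6. It was at 0.0182, 0.0168, 0.323 and 6.75 CPM in Tim-4-CD4- macrophages and at 0.0183 to 0.338 CPM in the CD4+ subsets. Tim-4-CD4- replicate 4, the high one, also had 150 CPM in sum over 6 acinar enzyme genes, against 0.766, 0 and 7.09 CPM in replicates 1, 2 and 3. The 6 acinar genes were called lower in Tim-4-CD4+ than in Tim-4-CD4- macrophages, beside 5.53% of all genes. None of the 5 that were tested without Tim-4-CD4- replicate 4 was called then (adjusted p from 0.15 to 0.68, edgeR). The log2 fold changes of Reg1 against Tim-4-CD4- were -3.20 ± 1.34 (adjusted p = 0.16) and -3.06 ± 1.32 (adjusted p = 0.11) with that library and 0.71 ± 1.01 (adjusted p = 0.78) and 0.87 ± 1.01 (adjusted p = 0.62, edgeR) without it. The part of pancreatic RNA in the Reg1 value was not tested.

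**Figure D5:**
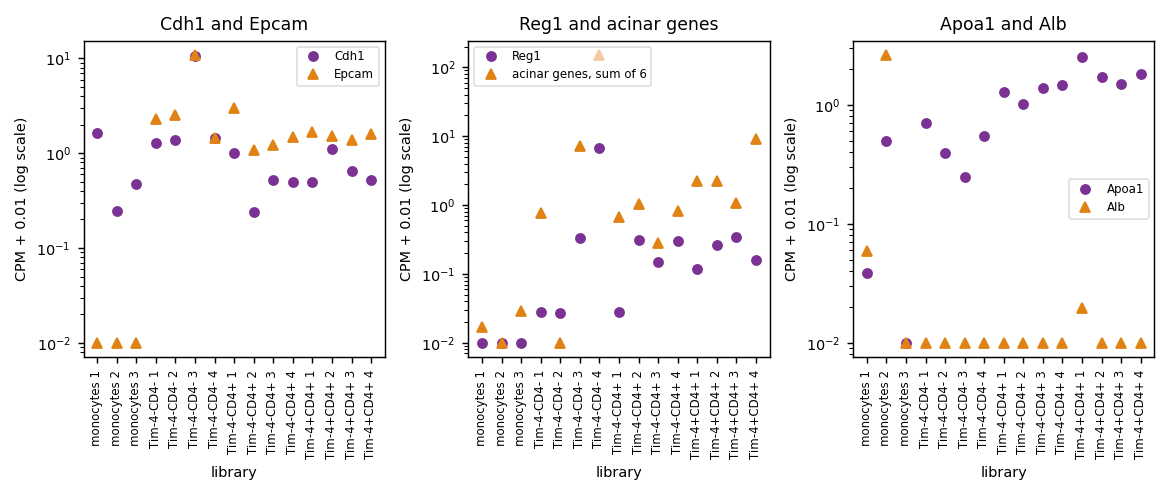
CPM + 0.01 on a log scale in each of the 15 libraries. Left, Cdh1 and Epcam, both highest in Tim-4-CD4- replicate 3. Middle, Reg1 and the sum of 6 pancreatic acinar genes, both highest in Tim-4-CD4- replicate 4. Right, Apoa1, which is present in every macrophage library, and Alb, which is high in monocyte replicate 2 only.

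Goblet cells secrete the mucus of the gut. Their genes were detected in macrophages with wide spread and no call between subsets. Agr2, which folds mucins, was at 0.821, 0.452, 2.46 and 2.04 CPM in Tim-4-CD4-, at 3.79, 0.657, 0.0639 and 1.12 in the Tim-4-CD4+ subset and at 2.23, 2.35, 0.563 and 3.78 in Tim-4+CD4+ macrophages. Tff3, the trefoil peptide of mucus, was at 0.108 to 0.518, 0.179 to 0.952 and 0.265 to 1.00 CPM, and Zg16, a lectin of goblet cell granules, at 0.164 to 3.31, 0.297 to 2.22 and 0.350 to 1.13. Muc2 had log2 fold changes of 0.75 ± 0.73 (adjusted p = 0.62) and 1.80 ± 0.71 (adjusted p = 0.082, edgeR). Olfm4, a gene of the crypt base, was at 0 to 0.466 CPM over the 12 libraries and had no count in Tim-4+CD4+ replicate 4.

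By role, then, the genes called higher in Tim-4+CD4+ than in Tim-4-CD4- macrophages were 5 of 7 fatty acid and lipoprotein genes, 2 of 10 tested surface and cytoskeleton genes, 1 of 5 brush border genes, 0 of 5 antimicrobial and IgA transport genes, 0 of 4 goblet cell genes and 0 of 1 crypt gene, beside 11.3% of all genes. The median log2 fold changes of these groups were 1.87, 0.53, 0.64, 0.28, 0.79 and -0.86. In Tim-4-CD4+ against Tim-4-CD4- macrophages the counts were 2 of 7, 2 of 10, 1 of 5, 0 of 5, 0 of 4 and 0 of 1, beside 4.52% of all genes, and the medians 1.59, 0.22, 0.54, 0.18, 0.28 and -0.69. Counts of 1 or 2 genes in a group of 5 to 10 are too few to set against these shares, and nothing is read from them. Whether the groups differ from each other was not tested.

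Other enterocyte genes, from a list that held none of the 33, were looked at beside them. Rbp2, which binds retinol in absorptive cells, was at 1.30 to 2.58 CPM in Tim-4-CD4-, 2.53 to 5.06 in the Tim-4-CD4+ subset and 4.01 to 5.16 in Tim-4+CD4+ macrophages. It was higher in both CD4+ subsets than in Tim-4-CD4- (1.16 ± 0.25, adjusted p = 0.0082, and 1.35 ± 0.25, adjusted p = 0.0012, edgeR). Prap1, a secreted protein of the gut, was at 0 to 0.0862 CPM in Tim-4-CD4-, 0.201 to 0.480 in the Tim-4-CD4+ subset and 0.216 to 0.525 in Tim-4+CD4+ macrophages, and was also higher in both (3.76 ± 0.82, adjusted p = 0.0085, and 3.92 ± 0.82, adjusted p = 0.0028, edgeR). The calls of these 2 genes held whichever library was left out. Dpp4, an enterocyte peptidase that leukocytes also carry, was at 76.3 to 120 CPM and was not called.

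Beside the counts in this paragraph, 4.52% of all genes were higher and 5.53% lower in Tim-4-CD4+ than in Tim-4-CD4- macrophages. The shares were 11.3% and 11.9% in Tim-4+CD4+ against Tim-4-CD4-, and 2.07% and 1.34% in Tim-4+CD4+ against Tim-4-CD4+ macrophages. Of 4 other goblet cell genes 3 were tested and 0 called. Among 10 Paneth cell genes, 7 were tested: Defa24, a defensin with many near-identical copies, was higher in Tim-4+CD4+ than in Tim-4-CD4- macrophages (1.09 ± 0.34, adjusted p = 0.029, edgeR), a call that was lost without any one of Tim-4-CD4- replicates 2, 3 and 4 or Tim-4+CD4+ replicates 2, 3 and 4 (adjusted p up to 0.083). Lyz1, which myeloid cells also express, was lower in that comparison (-2.51 ± 0.18, adjusted p = 4.0e-08). Enteroendocrine and tuft cell genes were hardly seen, with 3 of 10 and 3 of 6 in the table, 1 and 2 tested and 0 called. Of 5 crypt stem cell genes 4 were tested, and 1 was called higher and 0 lower in each CD4+ subset against Tim-4-CD4-. Of all genes, 4.52% (Tim-4-CD4+) and 11.3% (Tim-4+CD4+) were higher there. The median log2 fold changes of the 4 tested genes were -0.19 (Tim-4-CD4+) and 0.23 (Tim-4+CD4+). Lgr5 was at 0 to 0.25 CPM and was not tested, Ascl2, Smoc2 and Axin2 were not called, and Rnf43, a brake on Wnt receptors, was the one that was higher in both CD4+ subsets (1.496 ± 0.275, adjusted p = 0.0018, and 1.04 ± 0.27, adjusted p = 0.011, edgeR).

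Of 15 transcriptional and splicing regulators of epithelium, 12 were tested, and 1 was higher than in Tim-4-CD4- macrophages in the Tim-4-CD4+ subset and 2 in the Tim-4+CD4+ subset, beside 4.52% and 11.3% of all genes. Hnf4a was at 0.673 to 1.59 CPM and Cdx2 at 0.0647 to 0.678 CPM in the macrophage libraries, and neither was called between subsets. Ehf, an ETS factor known from epithelia, was at 39.99 to 59.6 CPM in Tim-4-CD4-, 110 to 148 in the Tim-4-CD4+ subset and 116 to 190 in Tim-4+CD4+ macrophages, far above the other 13 in the table, and below 0.15 CPM in monocytes. It was higher in both CD4+ subsets (1.43 ± 0.18, adjusted p = 5.8e-05, and 1.71 ± 0.18, adjusted p = 2.9e-06, edgeR). Gata4, a factor of proximal gut enterocytes, was higher in Tim-4+CD4+ than in Tim-4-CD4- macrophages (1.90 ± 0.62, adjusted p = 0.038, edgeR). That call was lost without any one of Tim-4-CD4- replicates 1, 3 and 4 or Tim-4+CD4+ replicates 1 and 4 (adjusted p up to 0.099).

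Transcripts of other tissue cells differed between the subsets beside the epithelial ones. The 10 mesenchyme genes summed to 78.9 to 115 CPM in Tim-4-CD4-, 90.3 to 113 in the Tim-4-CD4+ subset and 123 to 179 in Tim-4+CD4+ macrophages, and 4 of them were higher in the last against the first (Col1a1, Col1a2, Col3a1 and Dcn), beside 11.3% of all genes. Col3a1 was also higher in Tim-4+CD4+ than in Tim-4-CD4+ macrophages (0.73 ± 0.15, adjusted p = 0.011, edgeR), the 1 call of the list there, beside 2.07% of all genes. The Dcn call was lost without any one of 7 libraries, monocyte replicate 3, Tim-4-CD4- replicates 1 and 2, Tim-4-CD4+ replicate 3 and Tim-4+CD4+ replicates 1, 2 and 4 (adjusted p up to 0.13, edgeR). Of 7 T cell genes 2 were higher in Tim-4-CD4+ than in Tim-4-CD4- macrophages, beside 4.52% of all genes: Cd3e (1.63 ± 0.39, adjusted p = 0.012) and Trbc2 (1.37 ± 0.39, adjusted p = 0.035, edgeR), and the list summed to 3.29 to 6.94, 7.57 to 11.9 and 5.87 to 7.99 CPM. The Trbc2 call was lost without any one of Tim-4-CD4- replicates 1, 2 and 4 or Tim-4-CD4+ replicates 1, 2 and 3 (adjusted p up to 0.10, edgeR). The 9 B and plasma cell genes, at 3151 to 7537 CPM in sum, had 0 calls between subsets, as had the 7 endothelial genes, at 9.30 to 50.5 CPM. The part of RNA from these cells in the epithelial values was not tested.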

How the data were processed

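RNA was sequenced from 15 libraries, 3 of Ly6Chi monocytes and 4 of each macrophage subset, with groups taken from the titles. The authors trimmed paired reads with Trimmomatic 0.36, aligned them with STAR to GRCm38.p4, kept uniquely mapped reads and counted them per gene with HTSeq 0.6.1p1 on the GENCODE vM11 annotation. The deposited counts are raw whole numbers. The libraries were strand-specific, and which strand HTSeq counted is not given in the sources used here. The authors also deposited a signal per gene, the counts divided by a size factor per library, in 15 columns that were not used. No deposited gene has fewer than 16 reads over the 15 libraries.

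The epithelial genes and all other gene lists were chosen with earlier results of these data known. Counts were filtered with filterByExpr by population, scaled with TMM and tested in 1 quasi-likelihood fit over 15 libraries (edgeR 4.0.16, limma 3.58.1, R 4.3.3), with Benjamini-Hochberg adjustment over 15802 genes per comparison and a threshold of 0.05. The script was tested on simulated data. Levels are CPM on TMM-scaled library sizes. SE is the log2 fold change divided by the square root of its F statistic. DESeq2 1.42.0, other scalings and filters, thinned counts, a replicate block and leaving out each library were the alternatives. Gene positions and exon lengths came from GENCODE M21, promoters from RefSeq (GRCm38.p6), and figures from Python 3.11.15 with matplotlib 3.10.9. No 2 replicates agreed within sampling noise (chi-square per degree of freedom at least 22.1). The text names the 33 genes, genes of the other lists where a list is reported (1 result is not reported here), and the 10 genes most correlated with the mean of the 33. Intervals and floors cover counting error only.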

Additional observations from a re-analysis of the deposited data

Results flagged for a closer look

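In a group of 4 libraries, a library was picked out where its gap to the nearest other exceeded Dixon's 95% limit, which chance does in about 1 of 20 groups. Of 156 group values examined 21 were picked out, among them 13 of the 99 groups of single epithelial genes.

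Tim-4-CD4- replicate 3 was high for Epcam (10.8 CPM, others at most 2.51), Cdh1 (10.6 CPM, others at most 1.45) and Reg3b (1.55 CPM, others at most 0.921). Tim-4-CD4- replicate 4 was high for Reg1 (6.75 CPM), for the pancreatic acinar sum (150 CPM, others at most 7.09) and for Apoc3 (0.155 CPM, others at most 0.0216). Replicate 2 of that subset was high for Lgals4 (5.63 CPM) and replicate 1 for Fabp6 (1.04 CPM).

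Tim-4+CD4+ replicate 1 was high for Krt8 (6.53 CPM, others at most 3.25), Lgals4 (7.70 CPM), Lypd8 (1.14 CPM, others at most 0.447), the sum of the epithelial genes without Anpep (56.0 CPM, others at most 38.1) and the macrophage sum (18690 CPM, others at most 16448). Replicate 2 of that subset was high for Lct (0.215 CPM) and for the enteric neuron and glia sum (7.21 CPM), and replicate 4 for the pancreatic acinar sum (8.94 CPM).

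In Tim-4-CD4+ macrophages, Zg16 was high in replicate 1 (2.22 CPM, others at most 0.354) and Reg3g in replicate 3 (0.972 CPM). Replicate 3 was low for the other goblet cell sum (0.396 CPM, others at least 1.08).

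The hepatocyte sum was also picked out in Tim-4-CD4- replicate 1 (0.0365 CPM, from 2 reads) and Tim-4-CD4+ replicate 3 (0.0128 CPM, from 1 read). With the other 3 libraries of the group at 0, any single read meets the limit, so the chance rate above does not hold for these 2 values and nothing is read from them.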

How the results depend on the processing

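None of the 33 genes changed direction in a comparison between subsets that called it, under any alternative run. Without Tim-4-CD4- replicate 4, the sign against Tim-4-CD4- changed for some genes that were not called, such as Reg1 from -3.20 to 0.71 and from -3.06 to 0.87, and Zg16 from -0.70 to 0.36 and from -0.95 to 0.11, the Tim-4-CD4+ value first in each pair. The calls of Fabp2 and Krt20 held under every alternative run. The counts of epithelial genes called on leaving out 1 library ran from 3 to 7 for Tim-4-CD4+ against Tim-4-CD4- (3 without Tim-4-CD4- replicate 1, Tim-4-CD4- replicate 3 or Tim-4-CD4+ replicate 4, against 6), from 8 to 11 for Tim-4+CD4+ against Tim-4-CD4-, from 0 to 1 for Tim-4+CD4+ against Tim-4-CD4+ (0 without Tim-4-CD4+ replicate 4), and against monocytes from 26 to 29, 28 to 29 and 27 to 29. With a mean of at least 1 CPM required, 11 of the 33 genes were tested, and the counts were 6 for Tim-4+CD4+ against Tim-4-CD4- and 11, 10 and 10 for the 3 subsets against monocytes.

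The summed level of all 33 genes was 4.31 CPM in monocytes and 229, 218 and 171 in the Tim-4-CD4-, then the Tim-4-CD4+ and then the Tim-4+CD4+ subset. It was 2.55, 32.2, 36.8 and 41.4 without Anpep, and the mean log2 CPM over the genes was -4.50, -1.03, -0.55 and -0.35. The order of the subset means turned with Anpep left out, but the sums without it overlapped between the subsets. In Tim-4+CD4+ macrophages 1 library, replicate 1, stood apart (56.0 CPM, others at most 38.1). Plain CPM gave 4.62 in monocytes. Leave-one-out means ran from 4.22 to 4.39 in monocytes, 221 to 233 in Tim-4-CD4-, 214 to 221 in the Tim-4-CD4+ subset and 169 to 173 CPM in Tim-4+CD4+ macrophages.

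Whether same-numbered libraries of 2 subsets came from the same mice is not stated. Their correlations of deviations ran from -0.12 to 0.13 by title number and from -0.09 to 0.16 by the number in the sample description. The numberings differ for Tim-4-CD4+, and no pairs with unlike numbers were set beside these. The values therefore cannot decide whether the samples are paired. With a replicate block by title number 5, 9 and 1 genes were called between subsets, and by description number 8, 10 and 1, against 6, 10 and 1 without it. Under the title block Cdh1 (adjusted p = 0.082 and 0.079) and Alpi in Tim-4-CD4+ macrophages (adjusted p = 0.061, edgeR) were not called. Among genes not called, Apoa1, Apoa4 and Apoc3 passed in Tim-4-CD4+ against Tim-4-CD4- under some alternatives (4, 6 and 2), and Epcam in Tim-4+CD4+ against Tim-4-CD4- under 2. Most members are below 1 CPM, which limits what can be detected. The cause of these changes was not tested beyond the fewer genes or libraries that an alternative holds.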

Other observations

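The 10 genes most alike to the mean log2 CPM of the 33 epithelial genes over the 12 macrophage libraries were sought among 11776 others. The 33 were left out of the search, as were genes with a mean below 1 CPM. That limit also drops genes of the other epithelial lists. The 10 genes found held none of those lists, and nothing is read from that. They were Rab2b (Pearson's r = 0.92), Nif3l1 (0.92), Tmem9b (0.90), Laptm4a (0.90), Slc22a5 (0.88), Sat2 (0.88), Them4 (0.88), Cep70 (0.87), Lgmn (0.87) and Zfp707 (0.87), and all libraries share the differences between the 3 subsets. Lgmn, a lysosomal protease, had means of 188 ± 19.4 CPM in monocytes and 2407 ± 83.6, 2945 ± 179 and 3085 ± 276 CPM in the Tim-4-CD4-, then the Tim-4-CD4+ and then the Tim-4+CD4+ subset (SD, n = 3, 4, 4 and 4). Sat2 had means of 0.0304 ± 0.0381, 1.00 ± 0.151, 1.73 ± 0.443 and 2.97 ± 0.720 CPM in the same order.

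Elavl4, a neuronal RNA-binding protein, was higher in Tim-4+CD4+ macrophages than in either other subset (log2 fold change 4.55 ± 0.45, adjusted p = 4.1e-06, and 4.24 ± 0.44, adjusted p = 3.3e-05, edgeR), while the other 3 tested genes of the enteric neuron and glia list were not called between subsets.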
